A study of Mus musculus with 31 samples.

Results

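A set of genes of epithelial structure and identity were followed here in mouse induced pluripotent stem cells and in the embryoid bodies grown from them. They are the keratins Krt8, Krt18, Krt19 and Krt7, the adhesion and junction genes Epcam, Cdh1 and Cldn6, and the regulators Grhl2, Trp63 and Esrp1. These 10 genes are 10 of 18194 measured genes, and each was read from its own probe set, the one with the highest mean over all 31 arrays among the probe sets annotated to that gene alone. The 4 groups were Nos3-/- embryoid bodies at day 11 (n = 6), control embryoid bodies at day 11 (n = 9), Nos3-/- stem cells at day 0 (n = 6) and control stem cells at day 0 (n = 10). Nos3 encodes endothelial nitric oxide synthase. The Nos3-/- cells came from mice of the strain B6.129P2-Nos3tm1unc/J and the control cells from wild type CD1 mice, so the effect of the allele and that of the strain cannot be told apart. Both kinds of line were made from fibroblasts of the tail tip, taken from adult males, were reprogrammed with Sendai virus and were kept on inactivated mouse embryonic fibroblasts, which can add their own RNA at day 0. The day 11 samples had been aggregated in microwells and left to differentiate without directing factors. The labels do not say whether the arrays of a group are separate clones or cultures, so the p-values measure the spread between arrays, part of which may be technical.

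Keratins are the intermediate filament proteins of epithelial cells and assemble as pairs of a type II and a type I chain. Keratin 8 (type II) with keratin 18 (type I) is the first such pair of the embryo and the pair of simple, single-layered epithelia, where keratin 7 (type II) and keratin 19 (type I) join it. E-cadherin, the product of Cdh1, holds neighbouring cells together at adherens junctions, Epcam is a surface adhesion molecule, and claudin 6 is a tight junction protein of early embryonic epithelia. Pluripotent mouse cells are themselves epithelial in character and make E-cadherin and EpCAM, so these genes do not begin at zero at day 0. Grhl2 is a transcription factor that maintains epithelial junction genes, Esrp1 is a splicing factor that sets the epithelial forms of many transcripts, and Trp63 encodes p63, the transcription factor of surface ectoderm and stratified epithelium.

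Krt8 and Krt18 moved together between arrays on both days and Epcam moved with none of the keratins, as described below. The 250 bases before the annotated transcription start of Krt8, Krt18 and Epcam are therefore shown. The RefSeq promoter table (build GRCm38.p6) held 5 of the 10 genes, namely Krt8, Krt18, Krt7, Cldn6 and Epcam. Capitals mark the letters CAGGTG or, on the other strand, CACCTG, an E-box of the kind that the Snail and Zeb repressors bind, for example in the mouse E-cadherin promoter. The Krt8 window is chr15:102004343-102004592 on the minus strand, the Krt18 window chr15:102027966-102028215 on the plus strand and the Epcam window chr17:87635729-87635978 on the plus strand. Krt8 and Krt18 are neighbours on this chromosome with their starts facing each other and 2 predicted genes between them.
Krt8: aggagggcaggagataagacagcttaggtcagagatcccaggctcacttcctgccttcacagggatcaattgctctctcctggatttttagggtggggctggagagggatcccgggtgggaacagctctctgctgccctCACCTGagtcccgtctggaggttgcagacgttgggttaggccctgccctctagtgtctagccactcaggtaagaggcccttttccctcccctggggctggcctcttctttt
Krt18: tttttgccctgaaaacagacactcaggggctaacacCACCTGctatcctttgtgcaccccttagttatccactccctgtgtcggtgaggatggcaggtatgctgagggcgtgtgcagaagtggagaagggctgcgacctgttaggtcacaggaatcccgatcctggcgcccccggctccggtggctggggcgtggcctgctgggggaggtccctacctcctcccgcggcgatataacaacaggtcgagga
Epcam: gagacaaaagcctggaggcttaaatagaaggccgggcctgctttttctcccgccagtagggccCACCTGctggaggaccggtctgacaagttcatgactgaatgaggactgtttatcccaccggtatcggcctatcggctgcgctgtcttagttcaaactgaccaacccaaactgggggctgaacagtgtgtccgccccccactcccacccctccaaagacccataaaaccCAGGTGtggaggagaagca
Each of the 5 windows held this E-box, once in Krt8 (from 111 to 106 bases before the start), Krt18 (214 to 209), Krt7 (44 to 39) and Cldn6 (93 to 88), and at 2 places in Epcam (187 to 182 and 19 to 14). Of the 32851 promoter windows of the same length in the table, 17.2% held it. The site that Grainyhead factors such as Grhl2 bind was searched on both strands as AACCGGTT and as AACNGGTT, which contains the first. Neither was found in the 5 windows, and they were found in 0.116% and 1.79% of all windows. The matches describe letters only, since no binding was measured.

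Array 3 of the Nos3-/- day 11 group stood apart from the rest, with a mean correlation with its own group of 0.961. Its mean over 7 cardiomyocyte genes was 5.81 on the log2 scale, below the range of the control day 11 arrays (8.08 to 11.62) and within that of the Nos3-/- day 0 arrays (5.52 to 6.10), although cardiomyocyte genes rose with time in both genotypes. Its mean over 10 visceral endoderm genes was 5.70, against 8.01 to 12.17 in control day 11 arrays. Results that turn on this array are given with and without it, and without it 6 of the 10 genes passed at day 11. The set was drawn up as one of epithelial and surface ectoderm genes, and the other genes of that tissue gave mixed values. Of 9 measured surface ectoderm and early epidermis genes, Dlx5, Krt15 and Ovol1 lay below the lower tertile of all genes (6.03) in every group, and Krt14 did in all groups but control day 0. Krt5 stayed between 6.44 and 6.50 in the 4 group means. The other 4 lay above that tertile in every group, with group means of 9.81 to 10.84 for Perp, 7.62 to 9.23 for Sfn, 6.54 to 7.56 for Grhl3 and 6.30 to 8.17 for Tfap2a. Tfap2a rose over time in both genotypes, by 0.87 in Nos3-/- and by 1.57 in control. Sfn fell over time in both, by 0.87 in Nos3-/- and by 1.59 in control, and Grhl3 fell in control by 1.03. The highest group means of Perp, Sfn and Grhl3 were at day 0, so their levels do not set surface ectoderm apart from stem cells. Of the 9, 1 was higher and 1 lower in Nos3-/- at day 11, and 0 were higher and 2 lower at day 0. The shares of all genes were 4.41% higher and 5.29% lower at day 11, and 9.17% higher and 7.47% lower at day 0. Nos3 itself was measured at 6.98 in Nos3-/- and 6.65 in control cells at day 0, and at 6.88 in Nos3-/- and 7.05 in control embryoid bodies at day 11. The day 0 difference of 0.33 passed (adjusted p = 0.0295) and the day 11 difference of -0.17 did not (adjusted p = 0.386). Whether its probe set lies inside the deleted part is not stated, so no check of the allele can be read from these values.

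At day 11, 5 of the 10 epithelial genes were higher in Nos3-/- than in control embryoid bodies and 0 were lower. They were Krt7, Epcam, Cdh1, Trp63 and Esrp1, with differences between 0.43 and 1.32 on the log2 scale. Among all genes tested, 9.7% passed at day 11, 4.41% higher and 5.29% lower in Nos3-/-. The median difference was 0.45 over the 10 genes and 0.00 over all genes. At an unadjusted p under 0.05, limma gave 6 higher and 0 lower. At day 0, 0 genes were higher and 2 were lower in Nos3-/- (Krt8 and Cldn6), against 16.6% of all genes passing, 9.17% higher and 7.47% lower. There the unadjusted counts were 0 higher and 4 lower, and the median over the 10 genes was -0.21. All p-values are from limma fitted to all arrays and adjusted by Benjamini-Hochberg over all genes, with 0.05 as the threshold. In such bulk samples, fewer cells that express a gene and less RNA per cell cannot be told apart.

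**Figure D1:**
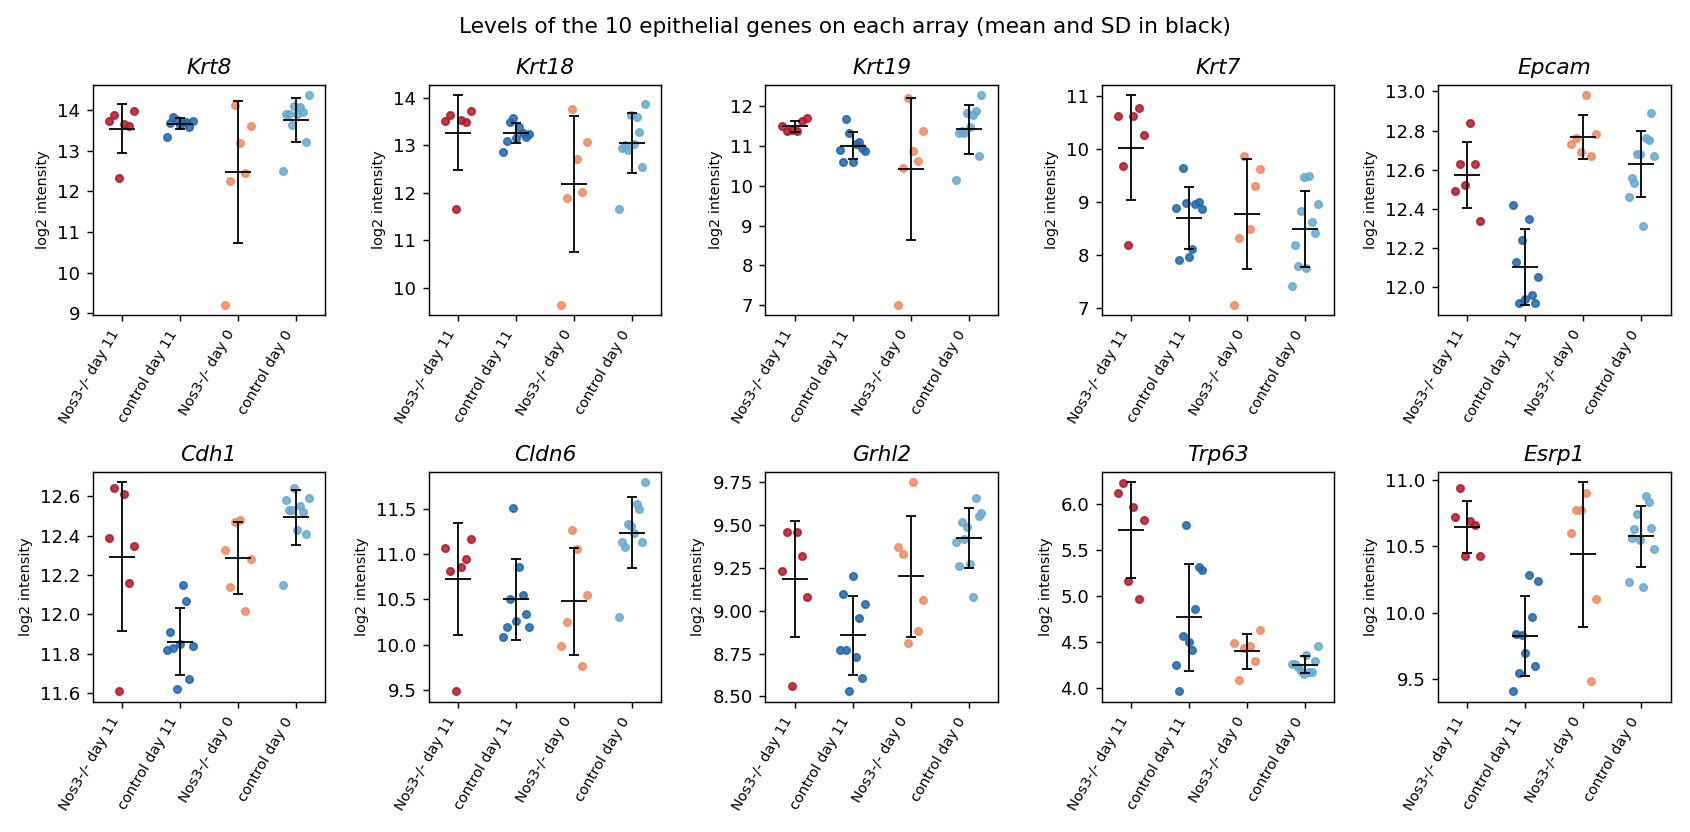
Log2 intensity of each of the 10 genes on every array, with 1 panel a gene, each on its own scale, and the groups in the order Nos3-/- day 11, control day 11, Nos3-/- day 0 and control day 0. Points are arrays, the long bar is the mean and the whiskers are 1 SD. The Nos3-/- day 0 arrays spread most in Krt8, Krt18 and Krt19, where the lowest point of each is the same array, and the Esrp1 points of the day 11 groups do not overlap.

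Krt8 ranged from 12.34 over a median of 13.71 to 13.99 in Nos3-/- embryoid bodies and from 13.35 over 13.71 to 13.84 in control embryoid bodies at day 11. In stem cells at day 0 it ranged from 9.21 over 12.82 to 14.13 in Nos3-/- and from 12.51 over 13.91 to 14.37 in control. The Nos3-/- day 0 arrays therefore held both the lowest value of all and one near the top, and the groups overlapped on both days. The day 0 difference was -1.28 (SE 0.42, adjusted p = 0.0357), a level 2.43-fold lower in Nos3-/-. It was -0.63 (adjusted p = 0.108) without Nos3-/- day 0 replicate 1, the array at 9.21. The call was also lost without Nos3-/- day 0 replicate 2 or 5 or control day 0 replicate 2, 3, 6, 7 or 10, with differences of -1.28 to -1.21 and adjusted p of 0.0521 to 0.0807. When only the day 0 arrays were fitted, the same difference did not pass (adjusted p = 0.114). At day 11 the difference was -0.13 (95% interval -1.01 to 0.75, adjusted p = 0.914), and 0.11 without Nos3-/- day 11 replicate 3. The 2 other probe sets of Krt8 carry a suffix (_x_at) for sequences shared with other transcripts, and they gave day 0 differences of -1.35 and -1.19.

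Krt18 encodes the type I partner of keratin 8 and had much the same pattern. It ranged from 11.67 over 13.53 to 13.73 in Nos3-/- and from 12.87 over 13.24 to 13.57 in control embryoid bodies. At day 0 it ranged from 9.65 over 12.37 to 13.77 in Nos3-/- and from 11.67 over 13.01 to 13.87 in control cells. The lowest value of each Nos3-/- group came from the same array as for Krt8. The difference was 0.01 at day 11 (SE 0.40, adjusted p = 0.992) and 0.33 without Nos3-/- day 11 replicate 3. At day 0 it was -0.86 (SE 0.39, adjusted p = 0.132), which did not pass. Without Nos3-/- day 0 replicate 3, the array with the highest keratins of that group, it was -1.18 and passed (adjusted p = 0.0262), and without replicate 1 it was -0.36.

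Krt19, a type I keratin of simple epithelia and ducts, had its tightest values in Nos3-/- embryoid bodies. They ran from 11.36 over a median of 11.45 to 11.69, against 10.58 over 10.93 to 11.67 in control embryoid bodies. Day 0 values ran from 7.02 over 10.74 to 12.19 in Nos3-/- and from 10.14 over 11.41 to 12.26 in control cells. The 7.02 was again Nos3-/- day 0 replicate 1, more than 3 log2 units below the rest of its group. Neither difference passed in the fit of all arrays, at 0.49 on day 11 (95% interval -0.40 to 1.38, adjusted p = 0.585) and -0.99 on day 0 (SE 0.43, adjusted p = 0.111). When only the day 11 arrays were fitted, the same day 11 difference passed (adjusted p = 0.0425). The day 0 difference was -0.31 without replicate 1, and -1.34 with adjusted p = 0.0192 without replicate 3.

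Krt7, a type II keratin of simple and glandular epithelia, differed at day 11. It ranged from 8.19 over 10.44 to 10.78 in Nos3-/- embryoid bodies and from 7.90 over 8.89 to 9.64 in control embryoid bodies. All Nos3-/- arrays but replicate 3 were above every control array. The difference was 1.32 (SE 0.41, adjusted p = 0.0338), a 2.50-fold higher level, and 1.69 (adjusted p = 0.00294) without replicate 3. The call was lost without Nos3-/- day 11 replicate 1, 4, 5 or 6 or control day 11 replicate 2, 5 or 6, with differences of 1.17 to 1.27 and adjusted p of 0.0515 to 0.0975. At day 0 Krt7 ranged from 7.07 over 8.91 to 9.86 in Nos3-/- and from 7.42 over 8.53 to 9.49 in control cells, and the difference of 0.29 (SE 0.40, adjusted p = 0.678) did not pass.

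Epcam had narrow groups, so a smaller difference passed. It ranged from 12.34 over 12.58 to 12.84 in Nos3-/- and from 11.92 over 12.05 to 12.42 in control embryoid bodies, and from 12.67 over 12.75 to 12.98 in Nos3-/- and 12.31 over 12.68 to 12.89 in control cells at day 0. At day 11, 5 of the 6 Nos3-/- arrays lay above every control array. The difference there was 0.47 (SE 0.09, adjusted p = 0.000492), a 1.39-fold higher level. At day 0 it was 0.14 (SE 0.09, adjusted p = 0.292). The second, dimmer probe set of Epcam gave 0.22 at day 11 and 0.20 at day 0. Those 2 values are alike, whereas the probe set used had the larger difference at day 11.

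Cdh1, the gene of E-cadherin, ranged from 11.61 over 12.37 to 12.64 in Nos3-/- and from 11.62 over 11.84 to 12.15 in control embryoid bodies. Day 0 values ran from 12.02 over 12.31 to 12.48 in Nos3-/- and from 12.15 over 12.53 to 12.64 in control cells. At day 11, 5 of the 6 Nos3-/- arrays lay above every control array and the remaining one, replicate 3, lay below them all. The day 11 difference was 0.43 (SE 0.11, adjusted p = 0.0121), and 0.57 without that array. It was 0.37 and did not pass without Nos3-/- day 11 replicate 4 (adjusted p = 0.0511), nor did it when only the day 11 arrays were fitted (0.43, adjusted p = 0.0641). At day 0 the difference was -0.21 (SE 0.11, adjusted p = 0.212).

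Cldn6 was the second gene that was lower in Nos3-/- stem cells. It ranged from 9.77 over 10.40 to 11.26 in Nos3-/- and from 10.31 over 11.27 to 11.79 in control cells at day 0, with a difference of -0.76 (SE 0.25, adjusted p = 0.033), a level 1.69-fold lower. The groups overlapped. The call was lost without Nos3-/- day 0 replicate 1, 2, 5 or 6 or control day 0 replicate 7 or 10, with differences of -0.77 to -0.62 and adjusted p of 0.0535 to 0.132. In embryoid bodies it ranged from 9.49 over 10.91 to 11.16 in Nos3-/- and from 10.09 over 10.34 to 11.51 in control, with a difference of 0.22 (95% interval -0.29 to 0.73, adjusted p = 0.695). The difference was 0.47 (adjusted p = 0.205) without Nos3-/- day 11 replicate 3, which holds the 9.49, and with array weights it was 0.55 and passed (adjusted p = 0.0197).

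Grhl2 ranged from 8.56 over 9.28 to 9.46 in Nos3-/- and from 8.53 over 8.77 to 9.20 in control embryoid bodies. At day 0 it ranged from 8.81 over 9.20 to 9.75 in Nos3-/- and from 9.08 over 9.46 to 9.66 in control cells. The groups overlapped on both days. The day 11 difference of 0.33 (SE 0.14, adjusted p = 0.138) did not pass, and without Nos3-/- day 11 replicate 3 it was 0.45 and passed (adjusted p = 0.0172). At day 0 it was -0.22 (SE 0.13, adjusted p = 0.269). The 3 other, dimmer probe sets of Grhl2 gave 0.06 to 0.23 at day 11, and the mean of all 4 passed there (0.18, adjusted p = 0.0311).

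Esrp1 was the member whose groups did not overlap at day 11. It ranged from 10.43 over 10.68 to 10.94 in Nos3-/- and from 9.41 over 9.83 to 10.28 in control embryoid bodies, so the lowest Nos3-/- array lay above the highest control array. Among all genes, 2.6% had groups that did not overlap at day 11. The difference was 0.82 (SE 0.17, adjusted p = 0.00103), a 1.77-fold higher level. At day 0 Esrp1 ranged from 9.49 over 10.69 to 10.90 in Nos3-/- and from 10.19 over 10.60 to 10.88 in control cells, with a difference of -0.13 (SE 0.16, adjusted p = 0.622). No member's groups were apart at day 0, against 1.92% of all genes.

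Trp63 lay below the lower tertile of all genes by its mean over the arrays and was the one member that such a filter would drop. It ranged from 4.97 over 5.90 to 6.23 in Nos3-/- and from 3.96 over 4.56 to 5.77 in control embryoid bodies, and from 4.08 over 4.44 to 4.63 in Nos3-/- and 4.15 over 4.24 to 4.45 in control cells at day 0. The day 11 difference was 0.95 (SE 0.20, adjusted p = 0.00205), a 1.93-fold higher level, and the groups overlapped. At day 0 the difference was 0.14 (SE 0.20, adjusted p = 0.677). The 3 other probe sets of Trp63 did not follow it, with day 11 differences of 0.01, 0.00 and 0.09, so the result rests on 1 of 4 probe sets. With the mean of the 4 in place of the brightest, the difference was 0.26 (adjusted p = 0.0107). Which transcripts of the gene each probe set reads was not tested.

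**Figure D2:**
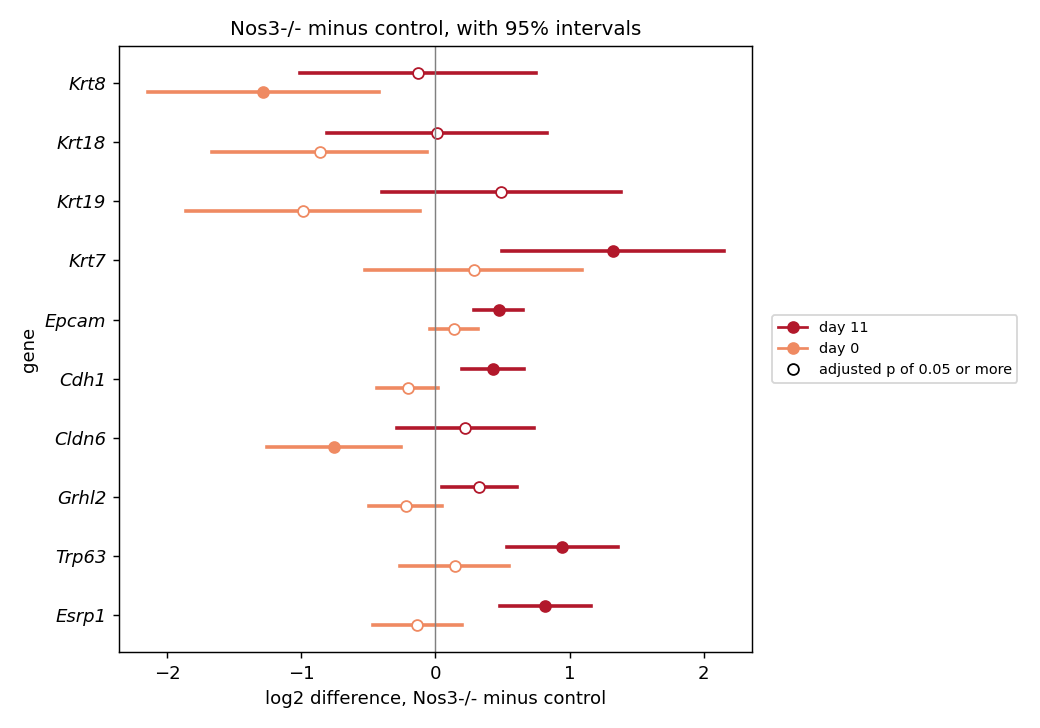
Log2 difference of Nos3-/- minus control for each of the 10 genes, at day 11 (dark) and at day 0 (light), with 95% intervals from limma. Filled points passed an adjusted p of 0.05 and open points did not. At day 11 the 5 filled points are Krt7, Epcam, Cdh1, Trp63 and Esrp1, all to the right of 0, and at day 0 the 2 filled points, Krt8 and Cldn6, are to the left.

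From day 0 to day 11, the junction genes and their regulators fell in control cells, and in Nos3-/- cells none of the 10 genes passed the test as lower. In control, Epcam fell by 0.53 (SE 0.08, adjusted p = 4.4e-06), Cdh1 by 0.63 (SE 0.10, adjusted p = 1.03e-05), Cldn6 by 0.73 (SE 0.22, adjusted p = 0.0096), Grhl2 by 0.57 (SE 0.12, adjusted p = 0.000414) and Esrp1 by 0.75 (SE 0.14, adjusted p = 0.000155). Trp63 was the single member that rose in control, by 0.52 (SE 0.18, adjusted p = 0.0244). That call was lost without control day 11 replicate 4, 8 or 9 (0.39 to 0.45, adjusted p of 0.0561 to 0.0621) and with the mean of its probe sets (0.08, adjusted p = 0.32). Thus 1 of 10 was higher and 5 were lower at day 11 in control, against 34.2% of all genes, 16% higher and 18.2% lower. The count at an unadjusted p was the same, and the median was -0.47 over the 10 genes and -0.03 over all genes. No member's values were apart between the days in control, against 6.52% of all genes.

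In Nos3-/- cells, 2 of the 10 genes were higher at day 11 than at day 0 and 0 were lower, against 31.1% of all genes, 13% higher and 18.1% lower. With each array centred on its median, that genome-wide split was 1982 higher and 4441 lower, against 2359 and 3299 as deposited. Trp63 rose by 1.32 (SE 0.22, adjusted p = 7.44e-05), and its day 11 values (4.97 to 6.23) did not overlap its day 0 values (4.08 to 4.63). Among all genes, 7.83% were apart in this way. The other probe sets of Trp63 had changes of -0.13, -0.10 and -0.05 in Nos3-/-, so this rise rests on the probe set used. Krt7 rose by 1.24 (SE 0.44, adjusted p = 0.0326), and by 1.61 without Nos3-/- day 11 replicate 3. Its call was lost without Nos3-/- day 0 replicate 1, 2 or 4 or Nos3-/- day 11 replicate 1, 4, 5 or 6, with changes of 0.90 to 1.20 and adjusted p of 0.0556 to 0.104. When only the Nos3-/- arrays were fitted, the same change of Krt7 did not pass (adjusted p = 0.108). At an unadjusted p under 0.05, limma gave 5 higher and 0 lower, the other 3 being Krt8, Krt18 and Krt19.

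Those 3 keratins had changes of 1.07, 1.08 and 1.07 in Nos3-/- cells, with adjusted p of 0.0855, 0.061 and 0.0863. Without Nos3-/- day 0 replicate 3, whose keratins were the highest of its group, the changes were 1.40, 1.40 and 1.43 and all 3 passed (adjusted p = 0.0204, 0.0126 and 0.0175). Krt8 and Krt18 also passed without Nos3-/- day 0 replicate 6 (1.29 and 1.26) or Nos3-/- day 11 replicate 3 (1.31 and 1.40), and Krt18 without control day 0 replicate 1 (1.08, adjusted p = 0.0494). Without Nos3-/- day 0 replicate 1, whose keratins were the lowest, they were 0.41, 0.57 and 0.39 and did not pass. The changes of the other genes in Nos3-/- were -0.19 for Epcam (SE 0.10, adjusted p = 0.132, and -0.30 with adjusted p = 0.00421 for the mean of its 2 probe sets), 0.25 for Cldn6 and 0.21 for Esrp1. Cdh1 and Grhl2 had changes near 0, at 0.01 and -0.02. Their signs turned in some settings, for Cdh1 to -0.05 with each array centred on its median and for Grhl2 to 0.11 without Nos3-/- day 11 replicate 3.

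**Figure D3:**
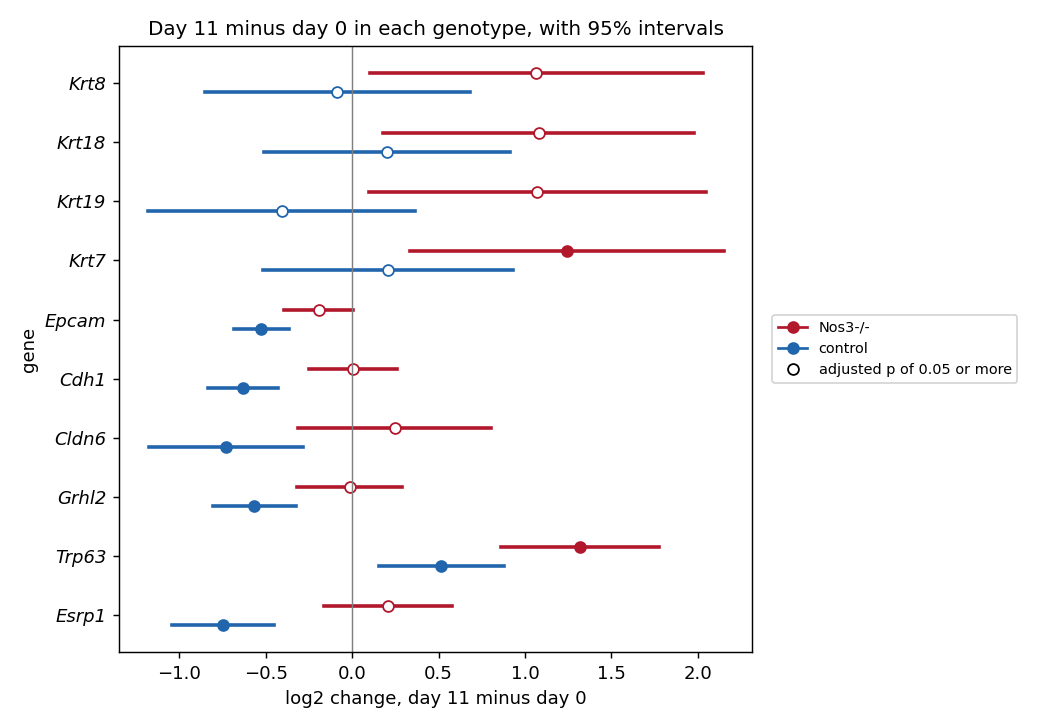
Log2 change from day 0 to day 11 for each of the 10 genes in Nos3-/- (upper, red) and control (lower, blue) cells, with 95% intervals from limma. Filled points passed an adjusted p of 0.05 and open points did not. Epcam, Cdh1, Cldn6, Grhl2 and Esrp1 are filled and left of 0 in control and open in Nos3-/-.

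The genotype difference in the change over time was tested as the interaction term, the change in Nos3-/- minus the change in control. It was positive for each of the 10 genes as read from the probe sets used, with a median of 0.92 against -0.02 over all genes. It passed for 2 of them, both higher in Nos3-/-, against 1.24% of all genes, 0.522% higher and 0.715% lower. At an unadjusted p under 0.05, limma gave 7 higher and 0 lower. Esrp1 changed by 0.21 in Nos3-/- and by -0.75 in control, a difference of 0.96 (SE 0.23, adjusted p = 0.0349). Cdh1 changed by 0.01 in Nos3-/- and by -0.63 in control, a difference of 0.64 (SE 0.16, adjusted p = 0.0406). Both adjusted p lay close to the threshold. The Esrp1 call was lost without any 1 of 10 arrays, which were Nos3-/- day 11 replicates 1, 2 and 4, control day 11 replicates 5 and 8, Nos3-/- day 0 replicates 5 and 6, and control day 0 replicates 3, 4 and 7 (0.77 to 0.95, adjusted p of 0.0501 to 0.0751). The Cdh1 call was lost without any 1 of 18 arrays, which were Nos3-/- day 11 replicates 1, 2, 4 and 6, control day 11 replicates 3, 4, 5, 8 and 9, Nos3-/- day 0 replicates 2, 5 and 6, and control day 0 replicates 2, 3, 4, 6, 7 and 10 (0.57 to 0.64, adjusted p of 0.0512 to 0.0953).

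For the other 8 genes the interaction did not pass. It was 0.98 for Cldn6 (SE 0.35, adjusted p = 0.151), 0.55 for Grhl2 (SE 0.19, adjusted p = 0.137), 0.80 for Trp63 (SE 0.29, adjusted p = 0.15) and 0.33 for Epcam (SE 0.12, adjusted p = 0.169, with 0.02 for its second probe set). The other, dimmer probe sets gave -0.02 to 0.14 for Grhl2 and -0.14 to 0.14 for Trp63, with both signs in each gene. Without Nos3-/- day 11 replicate 3, Cldn6 (1.22, adjusted p = 0.0289) and Grhl2 (0.68, adjusted p = 0.0303) passed too, and Cdh1 (0.77) and Esrp1 (1.00) were past the threshold. The keratins had the widest intervals. Their interaction terms were 1.48 for Krt19 (95% interval 0.24 to 2.72), 1.15 for Krt8 (-0.08 to 2.38), 1.04 for Krt7 (-0.12 to 2.19) and 0.88 for Krt18 (-0.27 to 2.02), with adjusted p of 0.212 to 0.441. The terms of Krt19, Krt8 and Krt18 were 0.80, 0.50 and 0.37 without Nos3-/- day 0 replicate 1.

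Within the groups, Krt8 and Krt18 deviated together from array to array on both days, Krt19 with them at day 0, and Epcam with none of the keratins. The following correlations of deviations from the group means are descriptions over 31 arrays, which share their processing. Krt8 and Krt18 had a Pearson r of 0.968 (Spearman rho 0.929), with 0.978 over the 16 day 0 arrays and 0.979 over the 15 day 11 arrays, and 0.958 without the 2 arrays farthest out in Krt8. Krt8 and Krt19 had an r of 0.929 (rho 0.752), with 0.987 at day 0 and 0.235 at day 11, so their likeness lay in the day 0 arrays. Krt7 followed Krt18 at 0.781 (rho 0.665). Epcam and the keratins had r of 0.038 to 0.155 and rho of -0.013 to 0.155. Cdh1 and Krt8 had an r of 0.393 (rho 0.573), with 0.384 at day 0 and 0.757 at day 11, and Krt8 and Cldn6 one of 0.627 (rho 0.73), with 0.686 at day 0 and 0.78 at day 11. Cldn6 deviated with Krt18 at 0.759 (rho 0.829), with 0.861 at day 11, and with Cdh1 at 0.589 (rho 0.554), which was 0.291 without the 2 arrays farthest out in Cdh1.

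**Figure D4:**
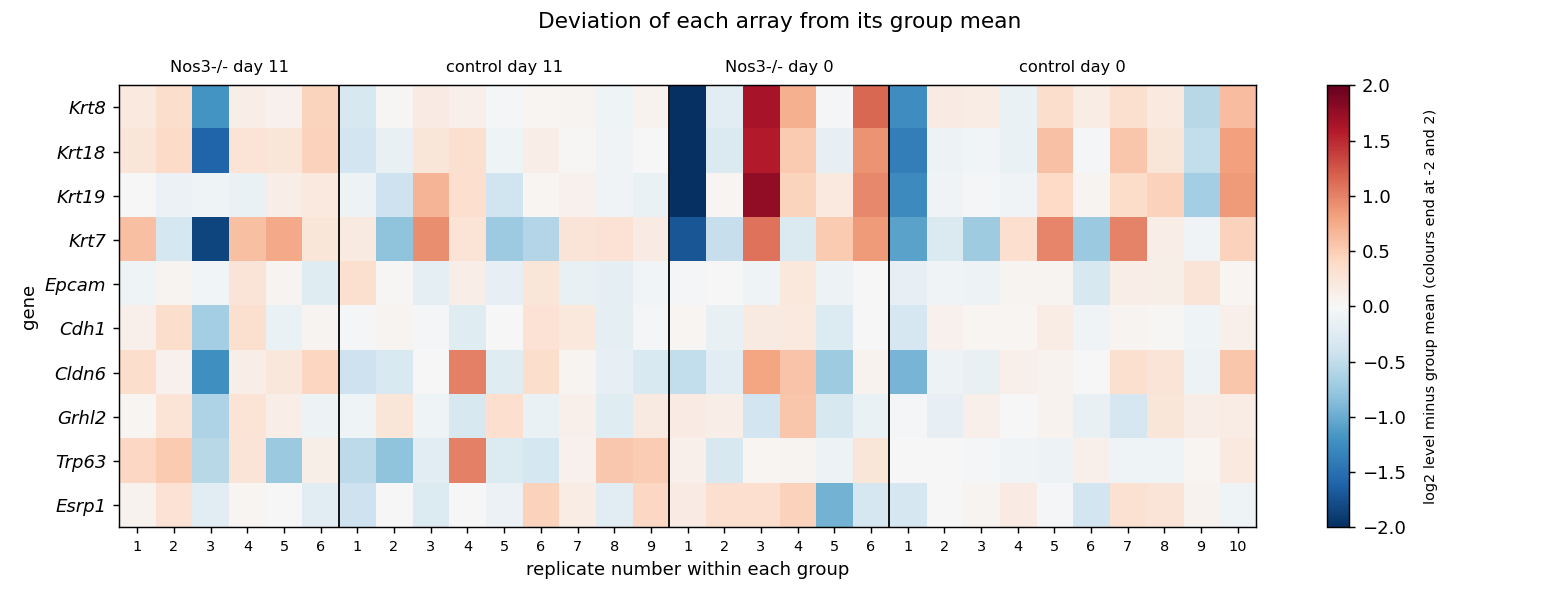
Deviation of each array from the mean of its group (log2, colour) for the 10 genes (down) and the 31 arrays (across, by group and replicate number). Krt8, Krt18 and Krt19 share the dark blue column of Nos3-/- day 0 replicate 1 and the dark red column of Nos3-/- day 0 replicate 3, and Krt8, Krt18, Krt7 and Cldn6 share the blue column of Nos3-/- day 11 replicate 3, while Epcam stays pale throughout.

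The genes closest to each member by the same Pearson r were looked up among all genes. For Krt8 they were Krt18, Krt19 and Dsp (0.888, rho 0.684), the gene of desmoplakin, which ties keratin filaments to desmosomes. For Krt18 they were Krt8, Dkk1 (0.91, rho 0.744), a secreted Wnt inhibitor, and Cyp26a1 (0.884, rho 0.624), which degrades retinoic acid. For Krt19 they were Krt8, Slc39a8 (0.905, rho 0.559), a metal ion transporter, and Dsp (0.892, rho 0.517). Krt7 was closest to Spint2 (0.84, rho 0.743), a membrane inhibitor of serine proteases, F11r (0.831, rho 0.75), a tight junction adhesion molecule, and Ccdc68 (0.826, rho 0.812). Cldn6 was closest to Prss8 (0.915, rho 0.904), an epithelial surface protease, then to Emb and Slc22a23. Epcam (Sapcd2, Dpysl5 and Pnpla2), Cdh1 (Gba2, Acvr2b and Cd276), Grhl2 (L3mbtl2, Pelp1 and Lmnb1), Trp63 (Slc16a12, Ly6h and Nhlrc3) and Esrp1 (Gmeb1, Armcx4 and Nup50) had closest genes with r of 0.712 to 0.869. None of these last 15 genes is in the epithelial lists used here.

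The wider set of epithelial genes was counted by list. Among all genes, 4.41% were higher and 5.29% lower in Nos3-/- at day 11, and 9.17% higher and 7.47% lower at day 0. Over time 13% of all genes rose and 18.1% fell in Nos3-/-, and 16% rose and 18.2% fell in control. In the interaction test 0.522% were higher and 0.715% lower. Desmosomes, the junctions to which keratins attach, had 4 of 11 measured genes lower and 0 higher in Nos3-/- at day 0, and 1 higher and 0 lower at day 11. Their median differences were -0.33 and 0.00, against 0.01 and 0.00 over all genes. Dsp averaged 10.01 in Nos3-/- and 11.48 in control cells at day 0 (difference -1.47, SE 0.39, adjusted p = 0.00996), and Dsc2, a desmosomal cadherin, averaged 7.40 in Nos3-/- and 8.79 in control (-1.39, SE 0.34, adjusted p = 0.00625). Over time in Nos3-/-, 4 rose and 0 fell, among them Dsc2 (by 2.33) and Dsp (by 1.94). In control 3 rose and 2 fell. Ppl, the gene of periplakin, was higher in Nos3-/- at day 11, at 7.91 against 6.90 in control (1.01, SE 0.15, adjusted p = 2.62e-05). It was also the one desmosomal gene to pass the interaction test (1.45, SE 0.21, adjusted p = 0.000436).

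Of 20 measured tight junction genes, 6 were higher and 1 was lower in Nos3-/- at day 11, and 1 was higher and 3 were lower at day 0. The medians were 0.19 and -0.18. Cldn23 averaged 6.49 in Nos3-/- and 5.01 in control embryoid bodies (1.49, SE 0.26, adjusted p = 0.00016), and Cldn4 averaged 11.21 in Nos3-/- and 10.34 in control (0.87, SE 0.22, adjusted p = 0.00982). Cldn9 was the lower one, at 5.37 in Nos3-/- and 6.48 in control (-1.12, SE 0.29, adjusted p = 0.0106). At day 0 Marveld2, which encodes tricellulin, averaged 6.07 in Nos3-/- and 7.95 in control cells (-1.88, SE 0.52, adjusted p = 0.0138). Over time 8 rose and 0 fell in Nos3-/-, against 13% and 18.1% of all genes. In control 4 rose and 4 fell, which was near the share of all genes (16% and 18.2%). There Cldn4 fell by 0.96 and the polarity gene Crb3 by 0.86. Cldn23 (1.79, SE 0.36, adjusted p = 0.011) and Marveld3 (0.86, SE 0.21, adjusted p = 0.0349) passed the interaction test, both with the positive sign of Esrp1 and Cdh1.

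Of 11 measured adherens junction genes other than Cdh1, 0 passed in either direction at day 11 (limma, with 2 higher and 0 lower at an unadjusted p under 0.05), and the median was 0.06. At day 0, 1 was higher and 2 were lower in Nos3-/-, against 9.17% and 7.47% of all genes. Vcl, the gene of vinculin, averaged 11.53 in Nos3-/- and 12.28 in control cells at day 0 (-0.76, SE 0.19, adjusted p = 0.00639). Over time Afdn, which encodes afadin, rose by 0.88 in Nos3-/- (adjusted p = 1.51e-05) and by 0.29 in control (adjusted p = 0.0297).

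Of 12 further keratin genes, 0 passed in either direction at day 11 (1 higher and 0 lower at an unadjusted p under 0.05, limma). At day 0, 0 of the 12 were higher and 2 lower in Nos3-/-, against 9.17% and 7.47% of all genes. There Krt17, a keratin of stressed and activated epithelia, averaged 7.10 in Nos3-/- and 8.76 in control cells (-1.66, SE 0.39, adjusted p = 0.00485). It fell over time in both genotypes, by 1.49 in Nos3-/- and by 2.80 in control. Over time 1 of the 12 rose and 3 fell in Nos3-/-, and 0 rose and 4 fell in control. Among all genes 13% rose and 18.1% fell in Nos3-/-, and 16% rose and 18.2% fell in control. The gene that rose in Nos3-/- was Krt20, by 1.60 (SE 0.46, adjusted p = 0.00875), and Krt42 fell there by 0.60 (adjusted p = 0.000345).

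Among 12 measured epithelial regulators other than the members, 1 was higher and 1 lower in Nos3-/- at day 11. The shares of all genes there were 4.41% higher and 5.29% lower. Grhl3, a relative of Grhl2, averaged 7.11 in Nos3-/- and 6.54 in control (0.57, SE 0.18, adjusted p = 0.0355), and Tfap2a, a transcription factor of ectoderm and neural crest, averaged 7.17 in Nos3-/- and 8.17 in control (-0.999, SE 0.19, adjusted p = 0.000526). In control, 4 of the 12 fell and 1 rose over time, among them Ovol2, a repressor of mesenchymal genes (by 1.44), and Grhl3 (by 1.03), whereas Tfap2a rose by 1.57. In Nos3-/-, 1 fell (Ovol2, by 0.84) and 1 rose (Tfap2a, by 0.87). The shares of all genes were 18.2% falling and 16% rising in control, and 18.1% falling and 13% rising in Nos3-/-. Of 14 epithelial surface and polarity genes, 2 were higher and 0 lower at day 11, namely Arhgef16 (0.56, adjusted p = 0.0257) and Ddr1, a collagen receptor (0.47, adjusted p = 0.0176). Over time 6 of the 14 rose and 1 fell in Nos3-/-, and 0 rose and 1 fell in control, with 0 rising and 2 falling there at an unadjusted p under 0.05.

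Of 12 mesenchymal genes, 4 were lower and 1 was higher in Nos3-/- at day 11, with a median of -0.53 over the list. At day 0, 4 were lower and 0 higher, with a median of -0.48, and the interaction median was -0.02. Among all genes, 5.29% were lower and 4.41% higher at day 11, and 7.47% lower and 9.17% higher at day 0. Cdh2, the gene of N-cadherin, averaged 9.46 in Nos3-/- and 10.78 in control cells at day 0 (-1.32, SE 0.34, adjusted p = 0.00897). Snai2, a Snail repressor, averaged 8.86 in Nos3-/- and 10.86 in control embryoid bodies (-1.99, SE 0.29, adjusted p = 1.5e-05), and the cadherin gene Cdh11 averaged 9.05 in Nos3-/- and 10.57 in control (-1.52, SE 0.39, adjusted p = 0.0104). S100a4 went the other way, at 9.47 in Nos3-/- and 7.73 in control (1.73, SE 0.46, adjusted p = 0.013). Snai2 also passed the interaction test, with a change of -0.82 in Nos3-/- and 0.78 in control (-1.60, SE 0.40, adjusted p = 0.0425).

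Markers of other cell types differed between the same groups, where 4.41% of all genes were higher and 5.29% lower in Nos3-/- at day 11. At day 11, 5 of 8 pluripotency genes were higher and 0 lower in Nos3-/-, and the mean over that list ranged from 9.71 to 12.07 in Nos3-/- and from 9.96 to 11.09 in control arrays. Of 10 visceral endoderm genes, 0 were higher and 7 lower in Nos3-/-, with list means of 5.70 to 8.02 in Nos3-/- and 8.01 to 12.17 in control arrays. Cubn, an endocytic receptor gene of that tissue, averaged 5.63 in Nos3-/-, below the lower tertile of all genes, and 9.79 in control. Of 11 fibroblast genes, 0 were higher and 8 lower, with list means of 8.08 to 9.11 in Nos3-/- and 8.93 to 10.70 in control arrays. Of 7 trophoblast genes, 0 were higher and 3 lower, with list means of 6.92 to 7.48 in Nos3-/- and 7.48 to 8.15 in control arrays, and Elf5 lay below the lower tertile in every group. Of 6 mesothelial genes, 0 were higher and 2 lower. Of 7 cardiomyocyte genes, 0 passed in either direction (limma, with 0 at an unadjusted p under 0.05 too). The part of these cell types in the epithelial differences at day 11 was not tested. With the visceral endoderm list mean as a covariate among the day 11 arrays, Krt7, Trp63 and Esrp1 kept their calls (limma) and Krt19 passed (0.81, adjusted p = 0.0105). Epcam (0.41, adjusted p = 0.119) and Cdh1 (0.44, adjusted p = 0.276) did not pass. That list mean nearly separates the genotypes, so the fit cannot tell the list from the genotype. With only the day 11 arrays and no covariate, Krt19 (adjusted p = 0.0425) and Epcam had passed and Cdh1 had not (adjusted p = 0.0641).

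At day 0, where 9.17% of all genes were higher and 7.47% lower in Nos3-/-, 3 of 11 fibroblast and feeder genes were lower and 0 higher. Their list means were 9.44 to 10.52 in Nos3-/- and 9.65 to 11.17 in control arrays. Of 10 visceral endoderm genes, 2 were lower and 0 higher, and Sox17 averaged 7.94 in Nos3-/- and 10.49 in control cells (-2.55, SE 0.74, adjusted p = 0.0174). Of 7 trophoblast genes, 2 were lower and 0 higher, namely Elf5 (-1.44, adjusted p = 0.00445) and Eomes (-1.42, adjusted p = 0.0126), with list means of 6.14 to 6.99 in Nos3-/- and 6.46 to 7.33 in control arrays. Of 6 mesothelial and 7 cardiomyocyte genes, 0 passed (limma, with 1 mesothelial gene lower at an unadjusted p under 0.05). Of 8 pluripotency genes, 2 were higher and 0 lower, with list means of 10.00 to 12.27 in Nos3-/- and 10.65 to 12.12 in control arrays. The array with the lowest keratins, Nos3-/- day 0 replicate 1, had a pluripotency mean of 12.21 and the lowest visceral endoderm (5.67) and trophoblast (6.14) means of its group. The array with the highest keratins, replicate 3, had a pluripotency mean of 10.00 and the highest visceral endoderm (7.39) and trophoblast (6.99) means. With the fibroblast list mean as a covariate among the day 0 arrays, neither Krt8 (-1.52, adjusted p = 0.389) nor Cldn6 (-0.74, adjusted p = 0.315) passed. Without the covariate, in the fit of all arrays, the differences were -1.28 for Krt8 and -0.76 for Cldn6. With only the day 0 arrays and no covariate, Krt8 did not pass either (limma, adjusted p = 0.114), whereas Cldn6 kept its call. The call of Krt8 was thus lost in those arrays with or without the covariate, and that of Cldn6 only with it. The part of any of these lists in the day 0 differences was not tested.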

How the data were processed

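RNA from mouse cells was hybridised to 31 Affymetrix arrays, 1 a sample, as biotinylated cRNA made from total RNA, per the labels' protocols. The authors deposited log2 values normalised by RMA, per the submitters' processing notes, which name no version. The deposited log2 values ran from 2.32 to 15.01, with array medians of 6.13 to 6.23, and no 2 arrays were identical. The number of arrays limits the precision.

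Of 45101 probe sets, 34958 had 1 gene symbol in the platform annotation, 932 had several and 9211 had none. The first kind gave 18194 genes, each read from its probe set of highest overall mean, and 9012 genes had more than 1. A model with 4 group means was fitted to all arrays with limma 3.58.1 in R 4.3.3 (27 residual degrees of freedom), for 5 comparisons, and tested on simulated data. Groups came from the genotype and day labels. No scan date or batch was given in the sources used here.

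The genes and gene lists were chosen with earlier results of these data known. Besides the 10 genes and Nos3, the text draws on up to 2 genes of each list that passed highest and lowest in a comparison, and on the 3 genes closest to each member by Pearson r, predicted genes left out. Alternatives were other normalisations, filters, probe set rules, variance models and array weights, fits of only the compared arrays, the replicate number as a block, marker covariates and each array left out in turn. Same-numbered arrays of the 2 days correlated at -0.021 to 0.289 in Nos3-/- and -0.239 to 0.271 in control, so the numbers were not taken to pair them. Sequences are RefSeq's.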

Additional observations from a re-analysis of the deposited data

Results flagged for a closer look

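Of 40 checks of a gene within a group, 7 found an array far from the rest of its group, where chance gives about 1 in 20. The checks are not independent, since genes such as Krt8 and Krt18 deviate together (r of 0.968). The 7 are therefore not separate events. In Nos3-/- day 11 replicate 3, Krt8 was at 12.34 (the others 13.62 to 13.99), Krt18 at 11.67 (13.50 to 13.73) and Cldn6 at 9.49 (10.81 to 11.16). In Nos3-/- day 0 replicate 1, Krt19 was at 7.02, with the others at 10.45 to 12.19. In Nos3-/- day 0 replicate 4, Epcam was at 12.98, with the others at 12.67 to 12.78. In control day 0 replicate 1, Cdh1 was at 12.15 (12.41 to 12.64) and Cldn6 at 10.31 (11.08 to 11.79).

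Esrp1 and Cdh1 changed differently over time in the 2 genotypes by the interaction test, with differences of 0.96 and 0.64 on the log2 scale. Both calls lay close to the threshold. The Esrp1 call was lost without any 1 of 10 arrays and the Cdh1 call without any 1 of 18. Neither passed with the replicate number as a block.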

How the results depend on the processing

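The number of arrays and the signal of dim probe sets (Trp63) limit what can be seen, and most calls near the threshold depend on single arrays. Leaving out 1 array at a time gave 0 to 4 genes passing at day 0 (2 with all arrays), 3 to 6 at day 11 (5), 1 to 5 over time in Nos3-/- (2), 5 to 6 over time in control (6) and 0 to 4 in the interaction (2). Quantile normalisation, centring, the mean of probe sets and the trended robust variance model moved none of these counts by over 1.5 times. Array weights gave 4 at day 0, 7 at day 11 (Cldn6 and Grhl2 added), 6 over time in Nos3-/- and 6 in the interaction. With only the compared arrays, 1 passed at day 0 and 1 over time in Nos3-/-. The filter on the lower tertile removed Trp63 and left 1 over time in Nos3-/-. Leaving out suffixed probe sets removed Krt8, Krt7 and Epcam and left 1 at day 0, 3 at day 11 and 1 over time in Nos3-/-. Without Nos3-/- day 11 replicate 3, 4 passed over time in Nos3-/- and 4 in the interaction. Without it and Nos3-/- day 0 replicate 1, chosen after seeing the data, 1 passed at day 0 and 4 in the interaction. With the fibroblast list as a covariate 0 passed at day 0. With the replicate number as a block, 0 passed at day 0 (Krt8 -1.20, adjusted p = 0.0776; Cldn6 -0.68, adjusted p = 0.0885) and 0 in the interaction (Cdh1 0.63, adjusted p = 0.0877; Esrp1 0.97, adjusted p = 0.0506), and the other counts did not move. In neither genotype did every array correlate best with its own number (1 of 6 pairs in Nos3-/- and 2 of 9 in control). Signs turned in values near 0. Krt8 at day 11 was 0.065 with array weights, 0.11 without the arrays left out above and 0.22 with the visceral endoderm list as a covariate, and single omissions gave -0.22 to 0.11. Single omissions gave -0.079 to 0.33 for Krt18 at day 11, -0.23 to 0.055 for Esrp1 at day 0, -0.063 to 0.14 for Cdh1 over time in Nos3-/- (-0.045 with centring) and -0.093 to 0.11 for Grhl2 over time in Nos3-/- (0.11 and 0.14 in both omissions above). Over all genes, array weights gave 3939 at day 11 (against 1764) and 1590 in the interaction (against 225). Only the compared arrays gave 3679 over time in Nos3-/- (against 5658). The fibroblast covariate, fitted to the day 0 arrays, gave 338 at day 0. Those arrays without it gave 2504, and all arrays 3029. The visceral endoderm covariate, fitted to the day 11 arrays, gave 702 at day 11, against 1473 in those arrays without it. The interaction gave 620 without Nos3-/- day 11 replicate 3 and 1144 without both arrays. Single omissions gave 1471 to 4142 at day 0 and 88 to 745 in the interaction. The cause of these shifts was not tested.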
